A study of Salmo salar with 12 samples.

Results

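In the deposited values from the liver of female Atlantic salmon, 473 of 94780 accessible regions (0.499%) met the conditions for being closed at the second sampling alone: all 3 libraries of time point T2 lay below the 9 libraries of T1, T3 and T4, and the level before T2 was close to the level after it. The regions are peaks of ATAC-seq, an assay in which the transposase Tn5 inserts sequencing adapters into open DNA. More reads in a region, for a given library size, are taken to mean more open chromatin. Each peak was chosen by 3 conditions on the deposited log2(CPM + 1) values, where CPM is the count scaled to the total count of the library in peaks. The 3 T2 values had to be the lowest of the 12, the T2 mean had to lie at least 0.5 below the mean of the other 9 libraries, and the T1 mean and the mean of the 6 T3 and T4 libraries had to differ by less than 0.5. The first condition was met by 641 peaks, the first and second by 511, and all by 473. The number depended on the scale: 23 peaks, 9 of them among the 473, met the conditions with uniquely mapped reads as library sizes, and 65, of which 54 were among the 473, with a pseudocount of 4 CPM in place of 1. Because the conditions used every library, the fall at T2 and the recovery are what chose the peaks. They are a description, and nothing is read from the counts of calls given further on.

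The fish were female brood stock of 1 management group, kept in tanks under a photoperiod programme that brings on sexual maturation, and they were killed at sampling. T1 was taken shortly before long light was switched on, whereas the 3 later samplings, 2 weeks apart, were made under long light. Each time point had 3 biological replicates with 1 library each. No sampled group was kept on the earlier light regime, so time and light cannot be told apart. Liver tissue was used without separating cell types, so fewer cells of a type with an open region and less opening per cell cannot be told apart. The tables identify peaks by number, with no position or gene, so neither the liver identity of the libraries nor the genes near a peak were examined, and no sequence is shown.

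Open chromatin in liver marks promoters and enhancers where transcription factors bind. A region that closes is less accessible to such factors. In maturing female fish the liver turns to making egg yolk proteins under the control of oestrogen from the ovary.

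Libraries held between 4199681 and 31312069 counts in peaks, and the median count of the 473 peaks ranged from 22 to 91 between libraries. Some libraries stood apart in how strongly their reads were concentrated. The 1000 most accessible peaks held between 9.41% and 9.62% of the counts in the T2 libraries, against 5.48% in T4 replicate 2, 7.65% in T3 replicate 3, 8.14% in T4 replicate 1 and 8.32% in T1 replicate 1, and between 8.83% and 10.3% in the other 5 libraries. The T2 libraries were thus alike in this respect, and 4 of the 9 libraries that they were set against had a lower share than any T2 library by more than 1 percentage point.

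The 3 T2 libraries had nearly the same median over the 473 peaks. The condition that all 3 be lowest bounded these values, so nothing is read from their evenness. The median log2(CPM + 1) of the 473 peaks was 1.39, 1.36 and 1.39 in T2 replicates 1, 2 and 3. Replicates 1, 2 and 3 were at 2.29, 1.89 and 1.97 for T1. For T3 they were at 1.93, 1.96 and 2.29, and for T4 at 2.01, 2.64 and 1.91. The values at T1, T3 and T4 overlapped one another, with the highest median in T4 replicate 2. Relative to each peak's own mean over 12 libraries, the median was 0.11 ± 0.20 at T1, but -0.50 ± 0.02 at T2, then 0.11 ± 0.22 at T3 and 0.22 ± 0.43 at T4 (SD, n = 3). Over all 94780 peaks the same quantity was -0.02 ± 0.10 at T1, -0.05 ± 0.03 at T2, then 0.01 ± 0.11 at T3 and 0.06 ± 0.16 at T4 (SD, n = 3). The T2 libraries were thus the least spread over all peaks too.

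**Figure D1:**
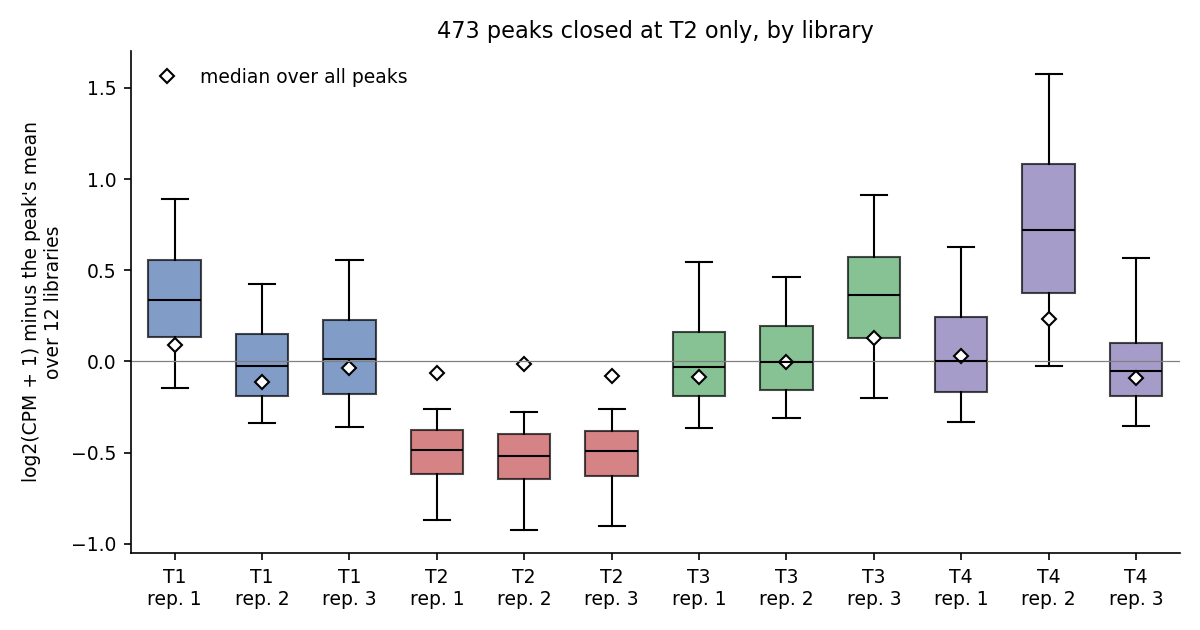
Log2(CPM + 1) of the 473 peaks closed at T2 only, minus each peak's mean over the 12 libraries, by library. Boxes span the quartiles with the median as a line, whiskers the 5th and 95th percentiles, and diamonds give the median over all 94780 peaks; the T2 medians sit near -0.50 and the T4 replicate 2 median is the highest at 0.72.

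On the log2(CPM + 1) scale most of these peaks closed by little more than the limit asked. The added 1 CPM makes falls in weak peaks smaller on this scale. In edgeR's fit of all 12 libraries the median log2FC was -0.91 over the 468 of these peaks tested. The T2 mean lay 0.50 to 2.65 below the mean of the other 9 libraries on the log2(CPM + 1) scale, with a median difference of -0.67, and 331 of the 473 peaks (70.0%) differed by less than 0.75. Only 29 peaks (6.13%) differed by 1 or more. The distance between the highest T2 library and the lowest of the other 9 was narrow, with a median of 0.07 and a maximum of 0.73, and it was under 0.1 for 285 peaks (60.3%). It reached 0.25 for 36 peaks (7.61%). At the limit itself, peak57244 and peak69913 were just inside with differences of -0.5002 and -0.5003, and peak10979 and peak54765 just outside with -0.4997 and -0.4993.

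The peaks closed at T2 only were weakly accessible ones. Their mean CPM over the 12 libraries had a median of 3.00 and quartiles of 2.06 and 4.37, whereas all peaks had a median of 5.37 and quartiles of 2.78 and 12.5. Of the 473, 396 (83.7%) were below the median level of all peaks and 0 were among the most accessible 10%. Low T2 values were common at this level. Of the 26972 peaks whose level fell between the quartiles of the 473, 76.1% had a T2 mean below the mean of the other libraries, and the median difference was -0.19, against 60.0% and -0.07 over all 94780 peaks. Among the libraries with little concentration, T4 replicate 2 held the highest of the 9 values for 274 of the 473 peaks. T3 replicate 3 and T1 replicate 1 held it for 67 and 51. T4 replicate 1 held it for 16, against 8 to 17 in each library with more concentration. Over all peaks T4 replicate 2 held the highest of the 9 values in 32.7%. The condition on the mean of the 9 favoured peaks with a high value there. No share was taken among peaks of the same level, so nothing is read from this contrast. With T1 replicate 1, T3 replicate 3 and T4 replicate 2 left out together the conditions chose 358 peaks, of which 249 were among the 473. Fewer libraries then had to lie above T2. Leaving out T4 replicate 2 alone gave 425 peaks and T4 replicate 1 alone 778. Without T2 replicate 1, 2 or 3, where fewer libraries had to be lowest, the numbers were 1285, 1092 and 1264.

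The level to which the peaks returned was close to that of T1 by construction, but T3 and T4 were free to differ from each other. The mean of T4 exceeded that of T3 in 333 of the 473 peaks (70.4%), against 55.4% of all peaks, with a median difference of 0.14 against 0.06 over all peaks. These values include T4 replicate 2, without which 366 of the 473 peaks were still chosen. Relative to each peak's own mean, the medians of T4 replicates 1, 2 and 3 were 0.004, 0.72 and -0.05. Those of T3 replicates 1, 2 and 3 were -0.03, -0.002 and 0.36. In these medians only T4 replicate 2 was above every T3 library. In 133 of the 473 peaks the means of T1, T3 and T4 all lay within 0.25 of one another. The mean of T1 was above that of the later 6 libraries in 167 peaks (35.3%), against 40.2% of all peaks.

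The largest separation was found in peak61948. It had 51, 37 and 65 counts at T1, 10, 10 and 14 at T2, 84, 24 and 36 at T3, then 34, 31 and 113 at T4. Its log2(CPM + 1) was 1.83 ± 0.51 at T1, but 0.64 ± 0.10 at T2, then 2.07 ± 0.53 at T3 and 2.50 ± 0.55 at T4 (SD, n = 3), and no other library came within 0.73 of the highest T2 value. The fold change of T2 over the mean of the other time points was -2.55 on the log2 scale in edgeR's fit of all 12 libraries. Its adjusted p in the quasi-likelihood test was 0.46.

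Next in separation was peak97252, with 66, 70 and 134 counts at T1, 15, 15 and 16 at T2, 89, 41 and 14 at T3, then 40, 16 and 89 at T4. The small counts of 14 and 16 belong to the shallow libraries T3 replicate 3 and T4 replicate 2. Scaled to depth, the peak stood at 2.41 ± 0.31 at T1, but 0.81 ± 0.09 at T2, then 1.94 ± 0.37 at T3 and 2.20 ± 0.06 at T4 in log2(CPM + 1) (SD, n = 3). The T2 libraries did not overlap with any other time point, and the T4 libraries were nearly equal. Its log2FC was -2.17 for T2 over the mean of the other time points and -2.49 for T2 over T1. The adjusted p of edgeR's quasi-likelihood test was 0.44 and 0.043 in the same order. The peak was chosen on these same libraries, so nothing is read from either.

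The next widest separations were found in peak53737, peak88523 and peak34928. In peak53737 the counts were 56, 112 and 190 at T1, 53, 30 and 37 at T2, 142, 49 and 49 at T3, then 48, 18 and 99 at T4, which gave a CPM of 5.35 ± 0.67 at T1, but 1.93 ± 0.35 at T2, then 5.42 ± 1.49 at T3 and 4.13 ± 0.17 at T4 (SD, n = 3). In peak88523 the CPM was 2.51 ± 0.35 at T1, but 0.92 ± 0.08 at T2, then 3.26 ± 1.74 at T3 and 1.98 ± 0.35 at T4, with a margin of 0.45 in log2(CPM + 1) between T2 and the other libraries (SD, n = 3). In peak34928 it was 4.37 ± 1.07 at T1, but 2.04 ± 0.15 at T2, then 6.71 ± 0.91 at T3 and 5.21 ± 1.97 at T4, with a margin of 0.43 (SD, n = 3).

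The largest fall in the mean was in peak15916, with a T2 mean 2.65 below the mean of the other 9 libraries. It had 36, 544 and 888 counts at T1, 38, 35 and 23 at T2, 1245, 396 and 24 at T3, then 370, 14 and 551 at T4. In log2(CPM + 1) the T2 libraries were at 1.42, 1.61 and 1.05, and T1 replicate 1, T3 replicate 3 and T4 replicate 2 were at 2.02, 2.07 and 2.12, while the 6 remaining libraries lay between 4.52 and 5.74. One library of each other time point was thus nearer to T2 than to its own replicates, and these were 3 of the 4 libraries with low concentration.

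Replicates also differed widely in peak65243 and peak76937, but by other libraries. The first had 11, 109 and 268 counts at T1, 9, 5 and 4 at T2, 82, 35 and 86 at T3, then 14, 16 and 15 at T4, so that its CPM was 1.87 ± 1.71 at T4, where T1 had 4.87 ± 3.82 (SD, n = 3). In log2(CPM + 1) its T1 replicate 1 and T4 replicate 3, at 0.95 and 0.68, were nearest to T2, where the highest library was at 0.48. The second had 95, 33 and 27 counts at T1, 6, 3 and 6 at T2, 61, 7 and 25 at T3, then 67, 17 and 67 at T4. Here T3 replicate 2, at 0.62, and T1 replicate 3, at 0.90, were nearest to T2, where the highest library was at 0.35, and no T4 library was below 1.88. In peak77967 the T2 libraries disagreed, with 0, 2 and 32 counts, and the third of them was within 0.05 of the lowest library of the other time points.

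**Figure D2:**
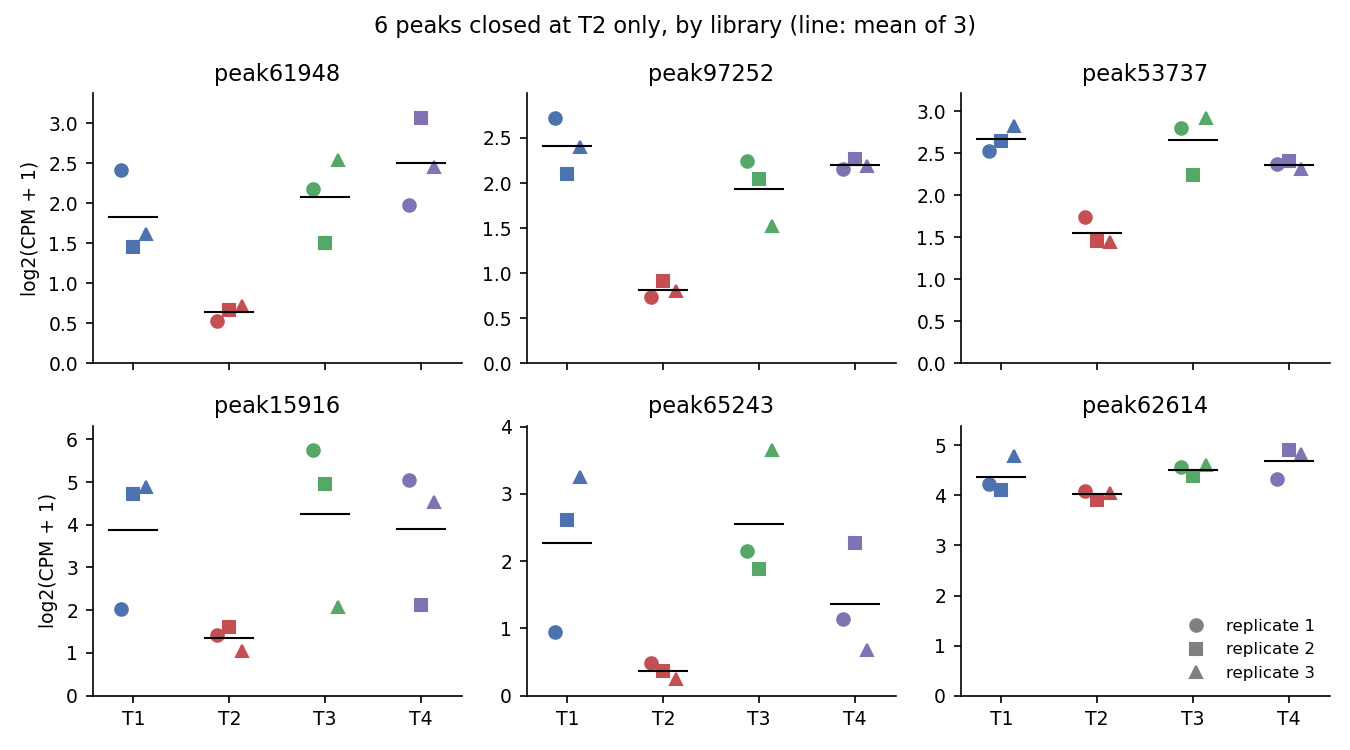
Log2(CPM + 1) of 6 peaks closed at T2 only, by time point, with a symbol for each replicate and a line at the mean of 3 libraries; each panel starts at 0 and has its own scale. The T2 libraries are the lowest in every panel, and the highest of them lies below the lowest other library by 0.73 in peak61948, 0.62 in peak97252, 0.51 in peak53737, 0.41 in peak15916, 0.19 in peak65243 and 0.02 in peak62614.

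Among the 4 most accessible peaks the T2 mean lay 0.51 to 0.89 below the mean of the other libraries in log2(CPM + 1). The most accessible of the 473 peaks, peak62614, had 365, 242 and 336 counts at T2. Its CPM was 20.2 ± 5.60 at T1, but 15.2 ± 1.01 at T2, then 21.9 ± 1.86 at T3 and 25.1 ± 5.26 at T4 (SD, n = 3). Its highest T2 library was 0.02 below the lowest of the others in log2(CPM + 1). The next, peak53761, had a CPM of 24.0 ± 3.72 at T1, but 11.7 ± 0.93 at T2, then 21.6 ± 6.40 at T3 and 23.2 ± 4.76 at T4, with a margin of 0.14 (SD, n = 3). In peak83362 the T2 libraries were nearly equal, at a CPM of 7.64 ± 0.14, against 15.1 ± 2.94 at T1 (SD, n = 3). In peak13498 the CPM was 8.82 ± 1.34 at T2, against 13.9 ± 2.18 at T1 (SD, n = 3). A further peak named by the fit of all 12 libraries, peak86482, had a CPM of 11.5 ± 0.62 at T1, but 4.44 ± 0.81 at T2, then 9.67 ± 2.63 at T3 and 8.38 ± 1.96 at T4 (SD, n = 3).

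Counts were also modelled over all peaks. Since the conditions that chose the peaks used the same contrast, nothing is read from the counts of calls. In a fit of all 12 libraries, 468 of the 473 peaks passed the filter on low counts, and edgeR's quasi-likelihood test called 0 of them lower at T2 than at the mean of T1, T3 and T4 (adjusted p under 0.05 and absolute log2FC above 1), beside 0% of the 94357 peaks tested. Their median log2FC was -0.91, against -0.02 over all peaks. An unadjusted p under 0.05 with a lower T2 was found for 423 of the 468, beside 2.41% of all peaks tested. DESeq2 called 8 of the 468 lower, beside 0.0244% of all peaks tested.

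The steps into and out of T2 were also part of the choice, and nothing is read from their counts. Against T1, 448 of the 473 peaks were tested and edgeR called 1 lower at T2, beside 0.0531% of all 92360 peaks tested. An unadjusted p under 0.05 was found for 293 of them, beside 6.44% of all, and DESeq2 called 43, beside 0.867%. For T3 against T2, edgeR called 0 of 443 tested members higher at T3, beside 0% of all 92741 peaks. There, 256 had an unadjusted p under 0.05 beside 3.25% of all, and DESeq2 called 7 beside 0.0528%. For T4 against T2, edgeR called 0 of 457 tested members higher at T4, beside 0% of all 93857 peaks. There, 178 had an unadjusted p under 0.05 beside 6.98% of all, and DESeq2 called 5 beside 0.0735%. The median log2FC of the members was -0.92 for T2 over T1, 0.86 for T3 over T2 and 0.97 for T4 over T2. These comparisons share the T2 libraries. The number called against T1 changed with single libraries. Without T2 replicate 3, 9 of 448 tested members were called, beside 0.777% of all peaks tested. Without T1 replicate 1, 2 of 432 were called, beside 0.00441%. Without any other library of the pair it was 0, beside 0.00542% to 0.0196%. For T4 against T2, 51 of 450 tested members (11.3%) were called without T4 replicate 3, beside 8.35% of all peaks tested, and 0 without any other library.

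The same conditions were applied with another time point in the place of T2. Closed at that time point alone were 618 peaks for T1, 473 for T2, 93 for T3 and 661 for T4. On the deposited scale T2 thus had neither the most nor the fewest. Opened at that time point alone, with all signs turned, were 1104, 205, 259 and 331 peaks in the same order. At T2 the closed peaks thus outnumbered the opened ones by 473 to 205. This depended on the scaling of libraries and on which libraries were included. Without T1 replicate 1, T3 replicate 3 and T4 replicate 2 the conditions gave 358 closed and 359 opened peaks at T2. Fewer libraries then had to lie beyond T2, so these counts do not compare directly with 473 and 205. With TMM-scaled library sizes the conditions gave 321 closed and 321 opened peaks at T2. With the uniquely mapped reads of each library as its size, in place of its count in peaks, they gave 23 closed and 741 opened peaks. For T1, T3 and T4 they then gave 90, 128 and 205 closed and 204, 38 and 160 opened peaks. T2 thus had the fewest closed and the most opened peaks on that scale. The scalings shifted all peaks, since the median of T2 minus the other 9 libraries over all peaks was -0.07 with the deposited values, 0.00 with TMM and 0.41 with mapped reads. Of the 473 peaks, 469 still had a T2 mean below that of the other 9 with mapped reads, with a median difference of -0.28, but only 19 kept all 3 T2 values below the others. With TMM this was 339 peaks.

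**Figure D3:**
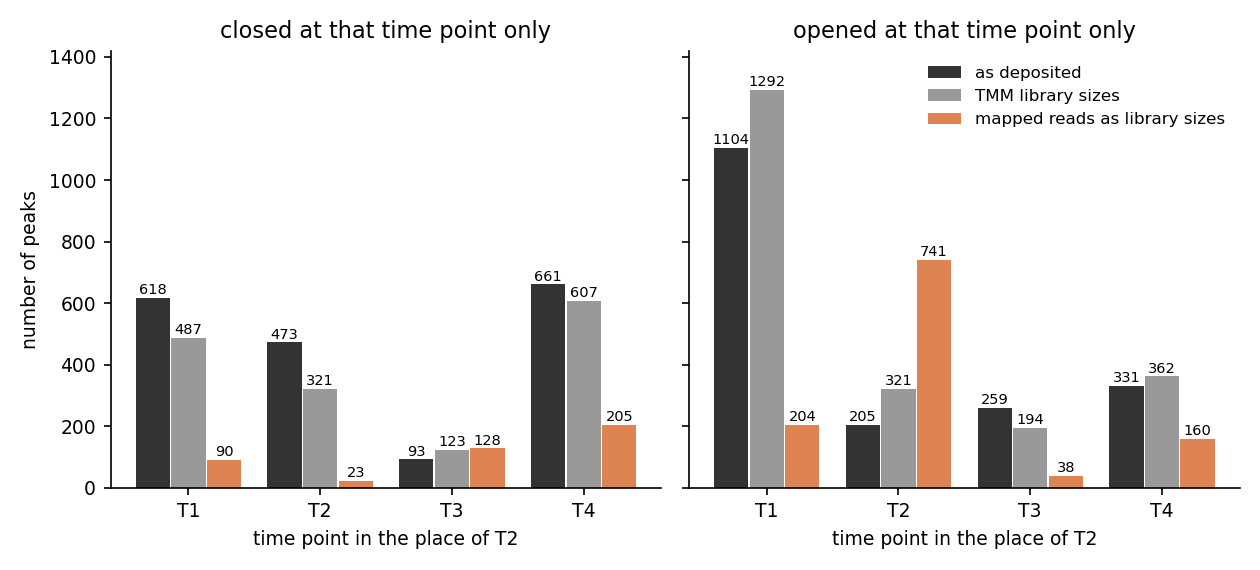
Number of peaks closed (left) or opened (right) at 1 time point only when T1, T2, T3 or T4 takes the place of T2 in the conditions, for 3 ways to scale libraries. At T2 the closed peaks number 473 as deposited, 321 with TMM and 23 with mapped reads, and the opened peaks 205, 321 and 741.

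Sets of 3 libraries that ignore the time points were also put in the place of T2, as a description of how often 3 libraries share their lowest values. With the first pair of conditions, which can be applied to all 220 sets, the T2 libraries had 511 peaks. The median over the sets was 196.5, the range 21 to 2821, and 36 sets had more peaks than T2, among them those of T1 and T4. Of these 36, 10 contained both T4 replicate 1 and T4 replicate 2, and the largest number was reached by T3 replicate 3 with T4 replicates 1 and 2. Other large sets, with 2040, 2003 and 1644 peaks, held T1 replicate 3 together with T3 replicate 1. With the third condition added, for the 219 sets that leave a T1 library, 28 sets had more than the 473 peaks of T2.

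**Figure D4:**
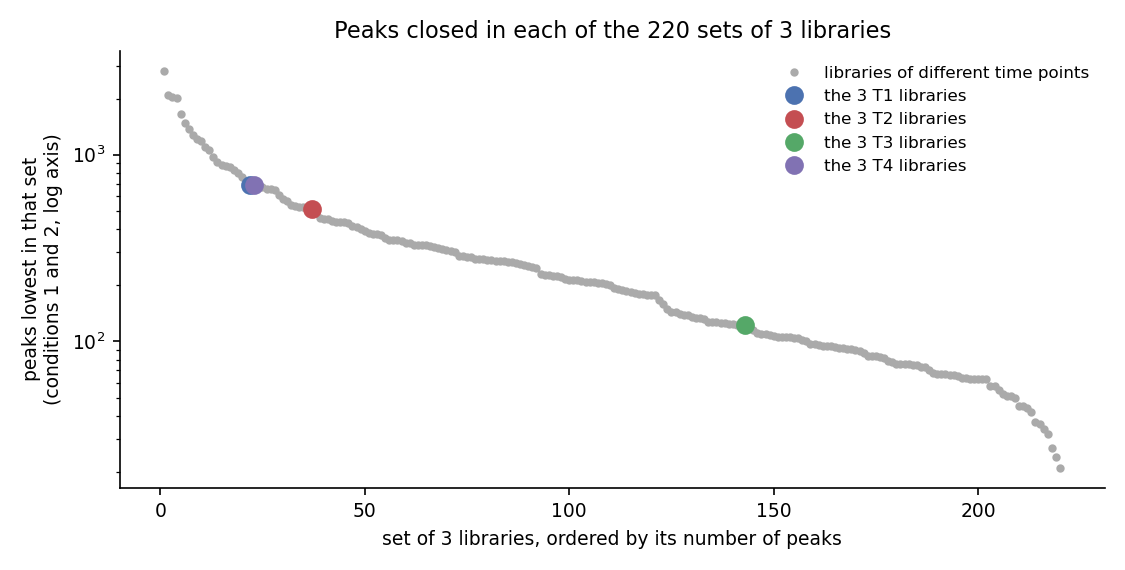
Number of peaks (log axis) that are lowest in a set of 3 libraries by at least 0.5, for each of the 220 sets, ordered from most to fewest. The T2 libraries, with 511 peaks, come after 36 other sets, the T1 and T4 libraries stand further left, and the T3 libraries stand in the lower part of the range.

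Peaks were also chosen anew with 1 library of each time point left out in turn, and measured in the libraries left out. In each of the 81 possible rounds the conditions were applied to the remaining 8 libraries, which chose between 833 and 3553 peaks (median 2000). Fewer libraries had to agree, so each round chose more peaks than the 473, and its values are not those of the 473. The left-out T2 library was then compared with the mean of the left-out T1, T3 and T4 libraries. The median difference over the chosen peaks was -0.23 (median of the 81 rounds, range -0.59 to 0.03) and was below 0 in 80 rounds. Over all peaks it was -0.07, and over all peaks between the quartiles of the chosen peaks' level it was -0.17. The chosen peaks were below the peaks of that level in 64 of 81 rounds: in 26 of 27 with T2 replicate 1 left out, in 27 of 27 with T2 replicate 2 and in 11 of 27 with T2 replicate 3. The left-out T2 library was the lowest of the 4 in 34.9% of the chosen peaks, against 27.7% of all peaks of that level (medians of the rounds). Rounds share libraries, so they are not independent and were not tested.

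This held-out fall was larger in rounds with T4 replicate 2 among those left out, and peaks of the same level were lower there too. The fall was -0.39 in the 27 rounds in which that library was among those left out and -0.17 in the 54 rounds in which it was not. Peaks of the same level were at -0.30 and -0.11 in these rounds. The reason was not tested. With the other time points in the place of T2, the chosen peaks were at -0.33 for T1, where peaks of their level were at -0.05, at -0.03 for T3, against -0.01, and at -0.26 for T4, against -0.04. With T4 replicate 3 left out, the peaks chosen for T4 were at 0.11. The distance to peaks of the same level was smaller for T2 than for T1 and T4, a difference that was not tested.

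**Figure D5:**
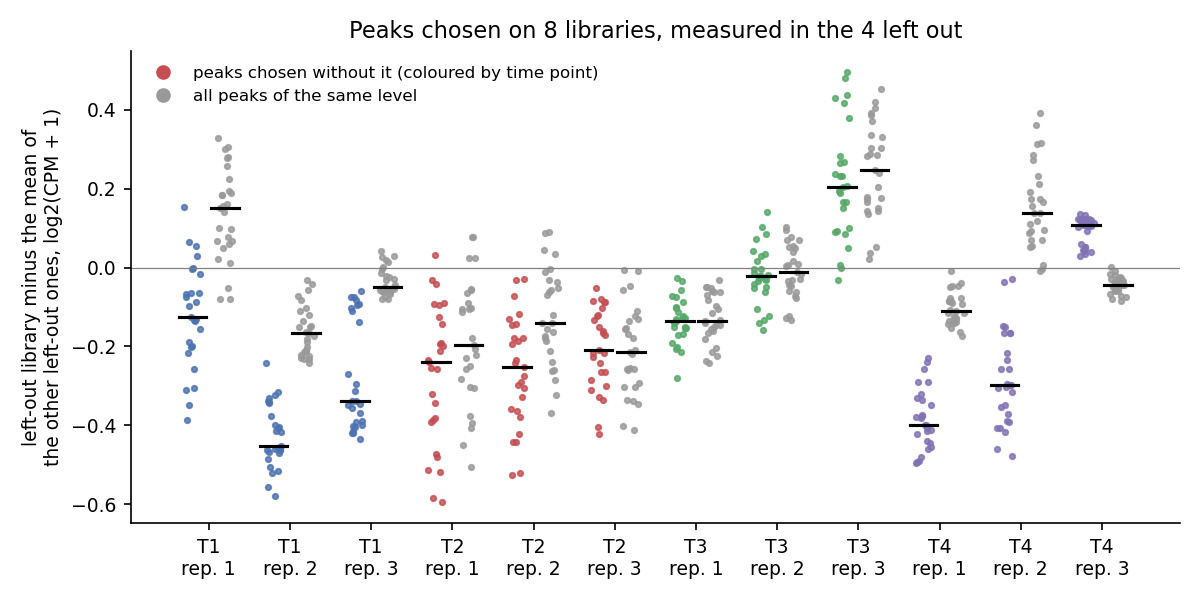
Median log2(CPM + 1) of a left-out library minus the mean of the left-out libraries of the other time points, over peaks chosen as closed at its time point on the 8 remaining libraries (coloured) and over all peaks between the quartiles of the chosen peaks' level (grey). Each point is 1 of 27 rounds and bars are medians; for T2 replicates 1, 2 and 3 the bars are at -0.24, -0.25 and -0.21 for chosen peaks and at -0.20, -0.14 and -0.21 for peaks of their level.

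The sources used here do not state what the order of peak numbers follows, but values were related between neighbours in number. Across all peaks, the difference between T2 and the other libraries was correlated between peaks with consecutive numbers (r = 0.25 over 94779 pairs that share the same libraries), less so 10 numbers apart (r = 0.049) and hardly 100 numbers apart (r = 0.0055). The 928 peaks directly beside a member in number that were not members themselves had a median difference of -0.15 between T2 and the other 9 libraries, against -0.07 over all 94307 peaks that were not members. Of these neighbours, 68.9% were lower at T2 against 59.8% of all non-members, and 12.5% were lower by at least 0.5 against 8.48%. Peaks between the quartiles of the members' level had a median of -0.19, so the neighbours, whose own level was higher, were not below peaks as weak as the members. All 3 T2 values were below the others in 3 of the 928 neighbours (0.323%), against 168 of all non-members (0.178%), a difference that was not tested.

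The 473 peaks were spread over the whole range of numbers. In successive blocks of 10000 numbers they made up between 0.40% and 0.61% of the peaks, and 0.356% of the 4780 peaks in the last, shorter block. There were 7 pairs with consecutive numbers and no longer run, so that 14 of the 473 peaks (2.96%) had a member beside them, against 0.994% of all peaks. The mean level was also correlated between consecutive numbers (r = 0.18 over all peaks). No share was taken among peaks of the members' level, and the difference was not tested. The pair with the largest summed fall was peak55390 and peak55391. The first had 187, 115 and 346 counts at T1, 72, 55 and 71 at T2, 237, 45 and 94 at T3, then 67, 39 and 247 at T4. The second had 103, 54 and 121 counts at T1, 12, 16 and 26 at T2, 112, 22 and 24 at T3, then 32, 20 and 67 at T4. The T2 mean lay 1.18 and 1.29 below the mean of the other 9 libraries in log2(CPM + 1), and the highest T2 library 0.05 and 0.28 below the lowest of them. This pair was singled out after its values were seen.

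Complete loss of signal at T2 was rare. All 3 T2 libraries had 3 counts or fewer in 2 of the 473 peaks, peak68976 and peak79266, which were weak throughout, with at most 18 and 20 counts in any library. In 384 peaks (81.2%) every one of the 12 libraries had at least 10 counts.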

How the data were processed

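ATAC-seq libraries from liver (4 time points, 3 biological replicates each) were analysed from 2 deposited tables. The authors aligned reads to the ICSASG_v2 genome with Bowtie2 2.3.5.1 and kept unique nuclear alignments after duplicate removal by Picard. Peaks came from MACS2, had to recur in 2 or more replicates of a time point, and were merged over time points before HTSeq 0.11.1 counted reads in them. Per the file, the deposited counts are not normalized. The deposited log2 values are log2(CPM + 1), made by the authors with the column total as library size, and the same formula applied to the counts gave them back to within 4.62e-14. A Tn5 shift of read positions is not given in the sources used here. The authors adjusted the amount of nuclei per enzyme sample by sample, and its effect on these values was not tested.

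The peaks were chosen from the log2 values as described. The members and lists were chosen with earlier results of these data known. The design text speaks of 4 replicates, while the authors describe 3 per time point for liver ATAC-seq. All 12 of these libraries were analysed here. Counts were fitted with edgeR 4.0.16 (R 4.3.3): CPM above 1 in at least 3 of 12 libraries (2 of 6 for pairs of time points), TMM, quasi-likelihood test, Benjamini-Hochberg adjustment over all peaks tested. A call needed an adjusted p below 0.05 with a log2FC beyond 1 in size. The 12-library contrast was T2 minus the mean of T1, T3 and T4. DESeq2 1.42.0 was an alternative. The 12-library fit was tested on simulated counts, with falls planted at T2 in 200 peaks more accessible than most of the members. It recovered 37% of falls of 1.5 and 98% of falls of 3 in log2. Recovery at the level and size of fall of most members was not tested. Other alternatives were no TMM, mapped reads as library sizes (from the study's mapping statistics, in which 1 library code was used for both T2 replicate 2 and T3 replicate 2 and was resolved by its description), no filter, other pseudocounts and limits, a replicate block, and leaving out libraries. Tables were made with Python 3.11.15, pandas 2.3.3 and numpy 2.4.6.

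Peaks named in the text were the 5 with the largest fall, the 5 with the widest separation, the 4 with the highest level, the 4 with the smallest p in the 12-library fit, the smallest p of each pair of time points, and 2 peaks on each side of the 0.5 limit. The consecutive pair and the peaks with 3 counts or fewer at T2 were named after their values were seen. Nothing in the labels says more of the replicates than that they are biological, so p-values measure the spread between these libraries.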

Additional observations from a re-analysis of the deposited data

How the results depend on the processing

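The number of peaks closed at T2 only was 23 with mapped reads as library sizes, 65 with a pseudocount of 4 CPM and 29 with a limit of 1 on the fall. It was 321 with TMM, 501 with a pseudocount of 0.25 CPM, 511 without the third condition and 412 with at least 10 counts in each of the other 9 libraries. Of the 473 peaks, 283 were chosen with TMM, 9 with mapped reads and 424 with the lower pseudocount. Leaving out 1 library gave 425 to 1285 peaks. The highest numbers, 1285, 1092 and 1264, were without T2 replicates 1, 2 and 3, where fewer libraries had to agree, and it was 778 without T4 replicate 1. Members called against the other 9 libraries numbered 8 with DESeq2 and 3 with mapped reads, beside 0.0244% and 0.0212% of all peaks tested. With each library left out it was 0, beside at most 0.00212%. At T2 against T1, 43 were called with DESeq2 and 9 with mapped reads, beside 0.867% and 0.11% of all peaks tested. With a library left out it was 9 without T2 replicate 3, 2 without T1 replicate 1 and 0 in the others. The shares of all peaks tested were 0.777%, 0.00441% and 0.00542% to 0.0196% in the same order. For T3 against T2 it was 7 with DESeq2 and 3 with mapped reads, beside 0.0528% and 0.0377% of all peaks tested. With a library left out it was 0, or 1 without T3 replicate 3, beside 0.0011%. For T4 against T2 it was 5 with DESeq2 and 1 with mapped reads, beside 0.0735% and 0.0107%, and 0 to 51 with a library left out. The 51 of 450 members (11.3%) were called without T4 replicate 3, beside 8.35% of all peaks tested. The cause of these differences was not tested. Libraries of the same replicate number were not treated as pairs in the main fits. The correlation of deviations between libraries of the same number ranged from -0.47 to 0.28 over 18 pairs. Between libraries of different numbers it ranged from -0.45 to 0.54. Whether libraries of the same number shared a batch was not tested. With a replicate block, edgeR called 0 members against the other 9 libraries, 1 at T2 against T1, 0 for T3 against T2 and 0 for T4 against T2. The shares of all peaks tested were 0%, 0.146%, 0% and 0.0032% in the same order. The held-out fall was -0.17 with TMM, -0.049 with mapped reads (all peaks 0.40), -0.23 as a mean and -0.24 with a limit of 1. Peaks of the same level were at -0.13, 0.15, -0.16 and -0.16 in the same order. With mapped reads the held-out difference was below 0 in 49 of 81 rounds, against 80 with the deposited values. For neighbours by number the median was -0.077 with TMM, 0.32 with mapped reads, where all peaks were at 0.41, and -0.12 for peaks 2 numbers away. The median level of members was 2.84 CPM with TMM. For the 18 named peaks, 296 of 306 fold changes under other settings stayed on the same side of the threshold, 10 passed it (with DESeq2 or mapped reads) and 0 changed sign. None of the 18 passed the threshold in the main fit, so staying on the same side meant not being called. All 18 were picked with their T2 values lowest in these libraries. The sign was thus largely fixed in advance, and nothing is read from it. The median count of the members was 22 in T4 replicate 2, the shallowest library.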
